A study of Mus musculus with 24 samples.

Results

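The AP-1 family transcription factors described here are 9 genes of regulatory T (Treg) cells: the FOS proteins Fos, Fosb and Fosl2, the JUN proteins Jun, Junb and Jund, the ATF protein Atf3 and the small MAF proteins Maff and Mafk. They were found by matching the Ensembl identifiers of the deposited table of normalized counts to gene symbols. All 9 were among the 17464 listed genes, and all 9 passed the filter on low values, which kept 16630 genes.

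Bulk RNA-seq was made from 3 splenic Treg subsets sorted by flow cytometry from 8 mice: resting Treg cells (rTreg, CD62L+ CD44-), activated Treg cells (aTreg, CD62L- CD44+) and Treg cells with the co-inhibitory receptor KLRG1 (kTreg). The donors were 4 young mice, aged 2 months, and 4 old mice, aged 26 months, all wild-type C57BL/6JRccHsd with no treatment. This gave 24 libraries in 6 groups of 4. Libraries of 1 age that carry the same number in the labels were taken as the subsets of 1 mouse, which the labels do not state in words. The study asked how kTreg cells, which accumulate with age, differ from the other Treg subsets.

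FOS and JUN proteins are leucine zipper factors that bind DNA as pairs. JUN proteins can pair with themselves, whereas FOS proteins need a partner, and small MAF proteins, which have no activation domain of their own, pair with FOS, NRF2 or BACH proteins. Fos, Fosb, Jun, Junb and Atf3 are immediate-early genes, transcribed within minutes of signals through the T cell receptor and MAP kinases, and the handling and dissociation of tissue also induces them. In Treg cells JUNB is known to sustain the effector state, and BATF with JUN proteins binds composite sites with IRF4.

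Stretches in front of 5 members are shown first, because serum response factor and JUN-ATF pairs act through short elements there and Fos, Fosb and Jun are textbook cases of it. Stretches before the annotated start of the canonical transcript were read from the GRCm39 genome with GENCODE M39, 5′ to 3′ on the strand of the gene, and capitals mark the matched element. The Fos stretch is chr12:85520338-85520637 on the plus strand and holds a CArG box, the core of the serum response element, 303 bases before the start. The Fosb stretch is chr7:19044208-19044267 on the minus strand and holds a CArG box 266 bases before the start. The Jun stretch is chr4:94940471-94940530 on the minus strand, the Jund stretch is chr8:71151359-71151418 on the plus strand, and the Maff stretch is chr15:79231660-79231719 on the plus strand.
Fos: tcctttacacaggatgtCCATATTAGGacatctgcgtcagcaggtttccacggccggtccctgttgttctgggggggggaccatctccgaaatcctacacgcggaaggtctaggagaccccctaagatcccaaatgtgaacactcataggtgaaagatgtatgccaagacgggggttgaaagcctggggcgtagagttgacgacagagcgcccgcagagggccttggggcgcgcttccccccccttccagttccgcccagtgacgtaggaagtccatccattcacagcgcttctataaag
Fosb: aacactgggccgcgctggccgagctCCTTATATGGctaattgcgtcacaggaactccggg
Jun: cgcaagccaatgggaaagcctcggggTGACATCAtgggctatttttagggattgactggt
Jund: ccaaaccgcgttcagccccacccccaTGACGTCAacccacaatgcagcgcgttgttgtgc
Maff: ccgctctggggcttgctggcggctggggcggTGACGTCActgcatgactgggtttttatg

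A CArG box lay within 500 bases before the start in 2.76% of 21757 protein-coding genes and, among the 9 members, in Fos and Fosb. The cAMP response element TGACGTCA lay in this window in 1.96% of the genes, with Jund and Maff among them, and the related TGACATCA in 3.72%, with Jun among them. The AP-1 site TGANTCA lay there in 12.3% of the genes and, of the members, in Fos. GC boxes (GGGCGG) were in 40.7% of the genes and in 8 of the 9 members, all but Junb. Both strands were searched, no match of the first 4 motifs in a member overlapped another match, and a match describes these letters and not a bound site.

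The libraries held between 15045747 and 29521942 reads in genes. Klrg1 was at 16559 to 41561 normalized counts in the 8 kTreg libraries and at no more than 357 in the other 16, and Foxp3, which defines Treg cells, was at 5079 to 37793. Normalized counts are read counts divided by a size factor of each library, so they compare libraries for 1 gene. Some libraries stood apart. All 3 libraries of young mouse 2 carried B cell markers (all 8 of 8 listed, summed level 7705 to 17478, against 499 to 2064 in the other 21) and macrophage and monocyte markers (8 of 8 listed, 3144 to 28905), young kTreg replicate 4 had 4913 genes at 0 against at most 2756 elsewhere, and old aTreg replicate 2 had the lowest Foxp3. The old rTreg libraries carried macrophage and monocyte markers at a summed 10605 to 27634 and all 5 basophil and mast cell markers at 3312 to 7850, against at most 347 in every other group. In bulk samples, fewer cells of a type and less RNA per cell cannot be told apart.

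Junb was the most abundant member. Per kilobase of exon, its median over the 24 libraries was 8377 normalized counts, followed by Jund at 3348, Jun at 1821, Fos at 1745, Mafk at 183, Fosb at 13.6, Fosl2 at 6.57, Maff at 4.28 and Atf3 at 3.43. Junb was above Jund in 24 of 24 libraries and Jund above Jun in 20, whereas Jun was above Fos in 17, so Jun and Fos did not separate. Mafk was above Fosb in 24 libraries, Fosb above Fosl2 in 22, Fosl2 above Maff in 16 and Maff above Atf3 in 11, and the order of the last 3 was not fixed across libraries. Junb alone made up between 45.2% and 64.1% of the summed per-kilobase level of the 9 members in each library, and Jund between 10.7% and 43.7%.

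**Figure D1:**
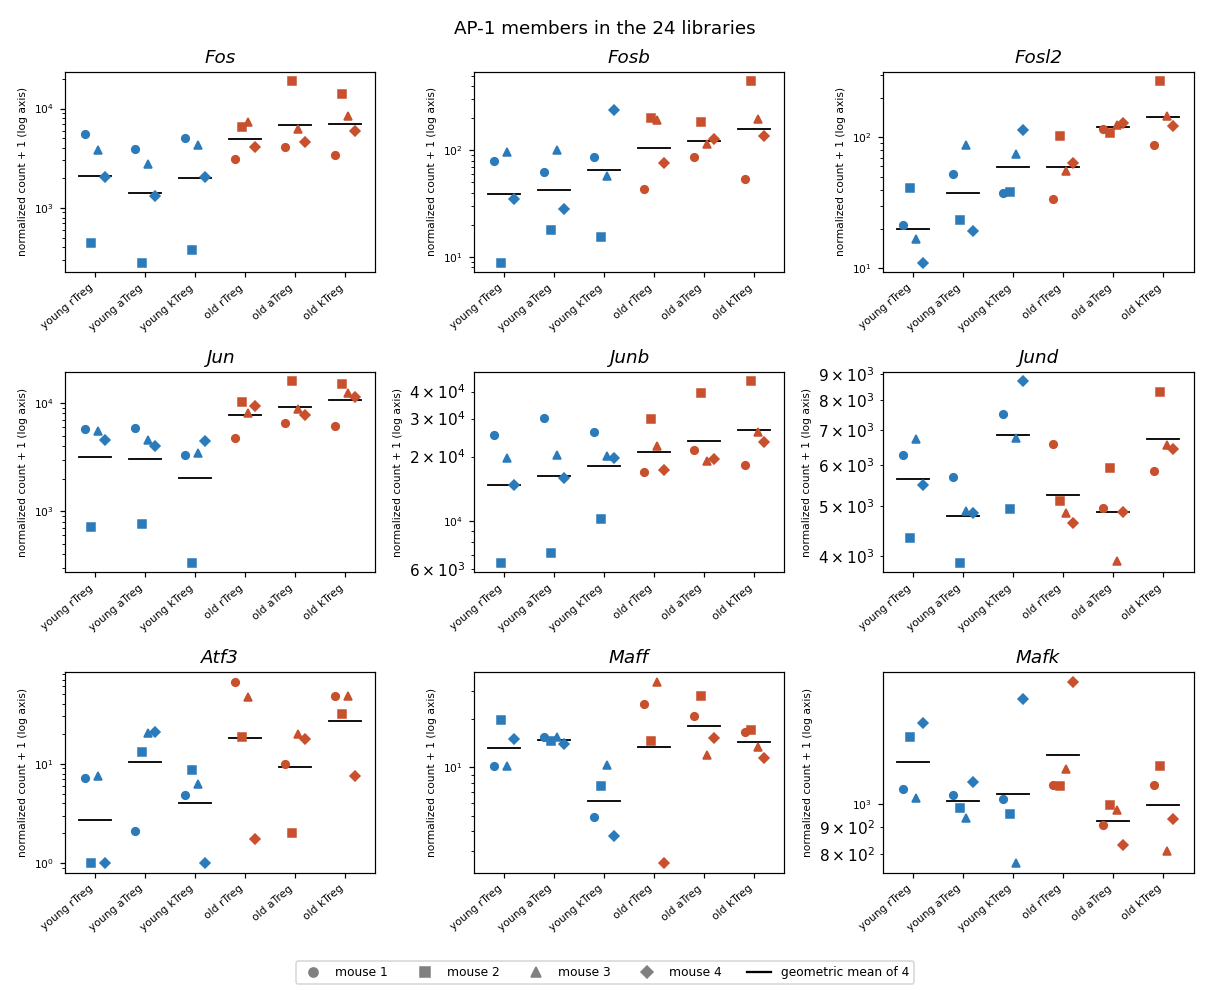
Normalized counts plus 1 of the 9 members on log axes, 1 point per library, with young mice in blue, old mice in red, the mouse number as the symbol and the geometric mean of the 4 libraries of a group as a bar. For Fos, Jun and Junb the squares of young mouse 2 lie at the bottom of all 3 young groups, with Fos at 279 to 441.

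The 3 JUN genes come first. Junb, a JUN protein that in T cells pairs with BATF, was at 25302, 6411, 19708 and 14841 normalized counts in young rTreg mice 1 to 4, at 30187, 7112, 20295 and 15878 in young aTreg and at 25953, 10296, 20183 and 19599 in young kTreg cells. In old mice it was at 16989, 29779.7, 22280.4 and 17347 in rTreg, at 21383, 39287, 19155 and 19485 in aTreg and at 18220.1, 44674, 26110.1 and 23341 in kTreg cells. The 6 groups overlapped, and the mice of a group lay farther apart than the group means.

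Jun, the founding JUN gene, was at 5781, 708, 5469.7 and 4586 in young rTreg, at 5835, 766, 4579 and 3990.2 in young aTreg and at 3284, 329.9, 3466 and 4467 in young kTreg cells. Its old values were 4735, 10132, 8115 and 9467 in rTreg, 6534, 15875, 8871 and 7753 in aTreg and 6101, 14844, 12454 and 11349 in kTreg cells. All 4 old aTreg and all 4 old kTreg libraries were above all 4 young ones of the same subset. In rTreg cells old mouse 1 fell among the young mice.

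Jund, a JUN gene that most cells express steadily, varied as little as Mafk and less than the other abundant members. Jund had a 2.25-fold range over 24 libraries, as did Mafk, against 48.1-fold for Jun and 67.9-fold for Fos. Jund was at 6279, 4334, 6741 and 5472 in young rTreg, at 5689, 3872, 4874 and 4846 in young aTreg and at 7536, 4936, 6761 and 8705 in young kTreg cells. In old mice it was at 6577, 5117, 4837 and 4627 in rTreg, at 4952, 5923, 3912 and 4859 in aTreg and at 5841, 8289.9, 6563 and 6444 in kTreg cells. In every mouse the kTreg library was above the aTreg library.

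Of the FOS genes, Fos was at 5490.2, 440.9, 3784 and 2064 in young rTreg, at 3878, 279, 2753 and 1330.4 in young aTreg and at 5085, 377, 4260.0 and 2031 in young kTreg cells. In old mice it was at 3112, 6489, 7378 and 4081 in rTreg, at 4146, 18944, 6273 and 4574 in aTreg and at 3433, 14043, 8441 and 5911 in kTreg cells. Old aTreg libraries were all above the young ones, and the rTreg and kTreg groups overlapped between the ages.

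Fosl2, the FOS gene for FRA-2, was much lower. It was at 20.5, 39.9, 15.8 and 10.04 in young rTreg, at 51.2, 22.6, 86.8 and 18.2 in young aTreg and at 36.6, 37.3, 73.3 and 113 in young kTreg cells, and in old mice at 33.0, 101, 54.8 and 63.3 in rTreg, at 115, 106, 124 and 128 in aTreg and at 87.0, 269, 146 and 121 in kTreg cells. The kTreg library was above the rTreg library in 7 of 8 mice, and the exception was young mouse 2.

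Fosb, a FOS gene with strong induction by signals, ranged from 7.75 to 446 normalized counts, the lowest in the rTreg library of young mouse 2 and the highest in the kTreg library of old mouse 2. Atf3, a stress-responsive factor, ranged from 0 in 3 young libraries to 66.1 in the rTreg library of old mouse 1, and 11 of 24 libraries reached 10 normalized counts. Maff ranged from 1.52 to 33.3. Mafk, the abundant small MAF gene, stayed between 766 and 1722, and its group means lay between 926 and 1264.

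The comparison of kTreg with the other subsets asked which members set them apart. A call required both an adjusted p (Benjamini-Hochberg) under 0.05 and more than a 1.5-fold difference in limma, which was fitted to log2 of the value plus 1 over all 24 libraries. Between kTreg and aTreg cells, 0 of 9 members were called, where 7.39% of all tested genes were. Jund had the smallest adjusted p, 0.011, with a log2 fold change of 0.49 ± 0.12 (SE, n = 8 mice each), a 1.41-fold difference that was under the fold threshold, and it was higher in kTreg in 8 of 8 mice, a pattern that 5.58% of genes had. The other 8 log2 fold changes ran from -0.79 for Maff to 0.50 for Fosb, with adjusted p from 0.27 to 0.96.

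Fosl2 rose in kTreg relative to rTreg cells. Its log2 fold change was 1.41 ± 0.37 (SE), a 2.66-fold difference with an adjusted p of 0.0078, and it was the 1 member called of 9, or 11.1%, where 15.5% of all genes were called. In young mice alone the log2 fold change was 1.55 ± 0.53 with an adjusted p of 0.042 (8.24% of genes were called higher there), and in old mice alone it was 1.27 ± 0.53 with an adjusted p of 0.13. With the mouse as a block the young value had an adjusted p of 0.057, and the value over both ages 0.014. Junb was higher in kTreg than in rTreg in 8 of 8 mice, as were 6.53% of genes, by a log2 fold change of 0.31 ± 0.30 and an adjusted p of 0.49. The old rTreg libraries of this comparison are those with myeloid and basophil markers, whose part in the result was not tested.

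Between aTreg and rTreg cells 0 of 9 members were called (8.01% of all genes). Fosl2 had a log2 fold change of 0.96 ± 0.37 and an adjusted p of 0.12, and was higher in aTreg in 7 of 8 mice. Without the 3 libraries of young mouse 2 it was called, as it was without all libraries that stood apart. Mafk had a log2 value of -0.34 ± 0.13 between aTreg and rTreg (adjusted p = 0.13), and its aTreg library was the lower one in 8 of 8 mice. The share of all genes with that pattern was not counted.

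With libraries of the same number taken as 1 mouse, a fit with the mouse as a block narrowed the intervals of the members whose mice differed. The SE of Fos between kTreg and aTreg went from 0.60 to 0.14 and that of Jun from 0.52 to 0.13. Averaged over the ages, the log2 fold change was 0.27 (95% interval -0.02 to 0.56) for Fos with an adjusted p of 0.22 and -0.18 (-0.45 to 0.09) for Jun with 0.40. Each average joins a young and an old value. Fos was at 0.52 (0.11 to 0.92, adjusted p = 0.11) in young and at 0.02 (-0.38 to 0.43, adjusted p = 0.98) in old mice. Jun was at -0.57 (-0.95 to -0.19, adjusted p = 0.061) in young and at 0.21 (-0.17 to 0.59, adjusted p = 0.63) in old mice. The differences between the ages had adjusted p of 0.53 for Fos and 0.28 for Jun. Junb (0.31, adjusted p = 0.018) and Jund (0.32, adjusted p = 0.018) were higher in kTreg than in rTreg under the block and stayed under 1.5-fold.

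**Figure D2:**
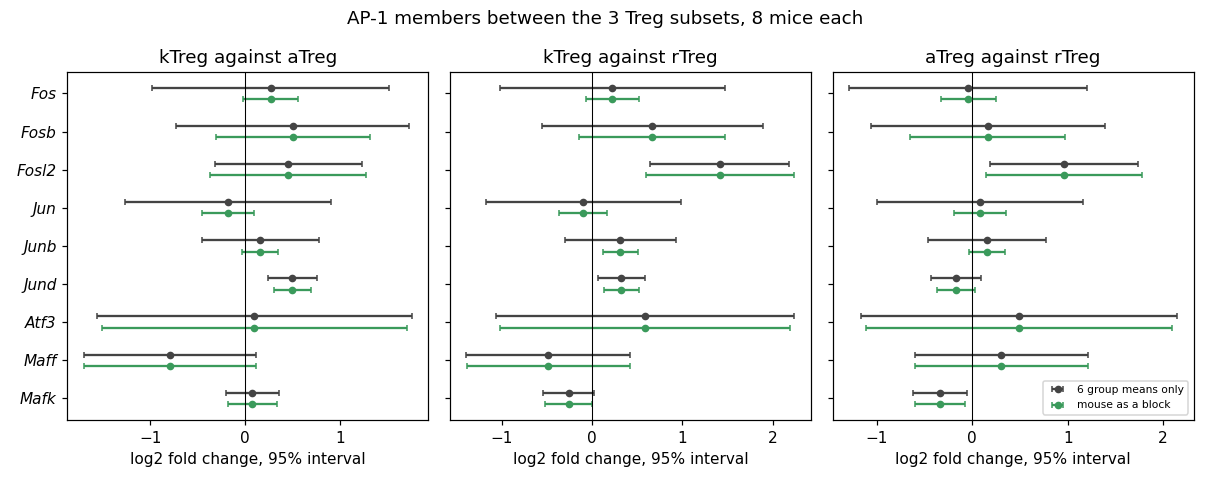
Log2 fold changes of the 9 members between the 3 subsets with 95% intervals, from the fit on 6 group means in grey and with the mouse as a block in green. Fosl2 between kTreg and rTreg lies at 1.41, and the green intervals of Fos and Jun are narrower than the grey ones.

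The kTreg to rTreg difference of Jun had opposite signs in young and old mice. In all 4 young mice the kTreg library was below the rTreg library, and in all 4 old mice it was above, a pattern that 0.980% of genes had. In the fit without a block the change of the kTreg to rTreg difference with age was 1.10 ± 1.04 on the log2 scale, with an adjusted p of 0.61, and 0 of 9 members were called in it (3.05% of genes). With the mouse as a block the same value had an SE of 0.25 and an adjusted p of 0.026, and 3.57% of genes were called. Jun was then lower in young kTreg than in young rTreg cells, by a log2 fold change of -0.65 and an adjusted p of 0.018 (7.85% of genes were called lower). That call was lost without young mouse 1 (adjusted p = 0.092), young mouse 2 (0.086) or young mouse 3 (0.079). In old mice the value was 0.45 with an adjusted p of 0.12 and was not called, and its rTreg side is the set of libraries with myeloid and basophil markers, whose part was not tested. Leaving out 1 mouse at a time moved the adjusted p of the age difference between 0.0060 and 0.097, under 0.05 without young mouse 4 and without old mouse 4, and over it without any of the other 6. In the fit without a block, the age differences of kTreg against aTreg (0.156% of genes called) and of aTreg against rTreg (1.58%) held 0 called members. With the mouse as a block they also held 0 (0.192% and 2.47% of genes). Under the block the age difference of Fos in aTreg against rTreg was 1.04 ± 0.27, with an adjusted p of 0.057. Its value was -0.56 in young and 0.47 in old mice. Without old mouse 3 it was called (adjusted p = 0.025), and it was not called without any other single mouse.

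Old mice were compared with young ones in each subset. In rTreg cells 0 of 9 members were called (5.83% of all genes), in aTreg cells 0 (2.71%) and in kTreg cells 0 (1.26%), although 8 of the 9 log2 fold changes were above 0 in rTreg, with Maff at 0.00, and 7 in each of the other subsets. The median of the 9 was 1.25 in rTreg, 0.55 in aTreg and 1.28 in kTreg cells, beside -0.08, 0.01 and 0.12 over all genes tested. Atf3 lay highest in rTreg (2.73) and kTreg cells (2.75) and was at -0.17 in aTreg cells, with an SE of 1.129 and adjusted p of 0.15, 0.25 and 0.99. Fos was at 1.25, 2.29 and 1.79 in rTreg, aTreg and kTreg cells, Jun at 1.29, 1.61 and 2.39, Fosl2 at 1.56, 1.65 and 1.28 and Fosb at 1.437, 1.55 and 1.28, with SEs of 0.85, 0.74, 0.53 and 0.84. The adjusted p of these 4 ran from 0.075 to 0.49. Groups did not overlap for 0 members in rTreg (6.61% of genes had all old above all young libraries), for Fos, Fosl2 and Jun in aTreg (7.63%) and for Jun and Maff in kTreg (6.57%). Maff was near the floor there, and its read counts did overlap. Old kTreg mouse 4 had 8 reads (10.5 normalized counts) and young kTreg mouse 3 had 9 (9.43). The old rTreg libraries carried the myeloid and basophil markers given above, and the part of these in the rTreg values was not tested. The part of spleen handling, which also induces such genes, in the differences between the ages was not tested either. Of 14 heat shock genes, 1 was called higher in old rTreg (Hspa1a, 3.60) and 2 in old aTreg cells (Hspa1a, 4.69, and Hspa1b, 3.78). In kTreg cells 0 were. The shares of all genes called higher were 4.12%, 1.85% and 1.02%. Jund and Mafk differed between the ages by 0.13 or less on the log2 scale in every subset.

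Each mouse gave 3 libraries, so the mean of the 3 was also compared, 4 old against 4 young mice, a comparison chosen after the values were seen. Fosl2 was 2.82-fold higher in old mice (log2 SE 0.31, adjusted p = 0.031), and it was the 1 member called of 9 (2.25% of genes were called higher). Its adjusted p was 0.052 without young mouse 2, 0.10 without old mouse 2 and 0.14 without both, and its log2 fold changes were 1.47, 1.33 and 1.29. Jun was at 1.77 ± 0.62 with an adjusted p of 0.19. Without young mouse 2 it was at 1.01 ± 0.23 and was called with an adjusted p of 0.045, and without both mice it was at 0.83 with 0.072. Fos went from 1.78 (adjusted p = 0.26) to 0.68 (adjusted p = 0.47) without both, and Junb from 0.54 to -0.04.

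**Figure D3:**
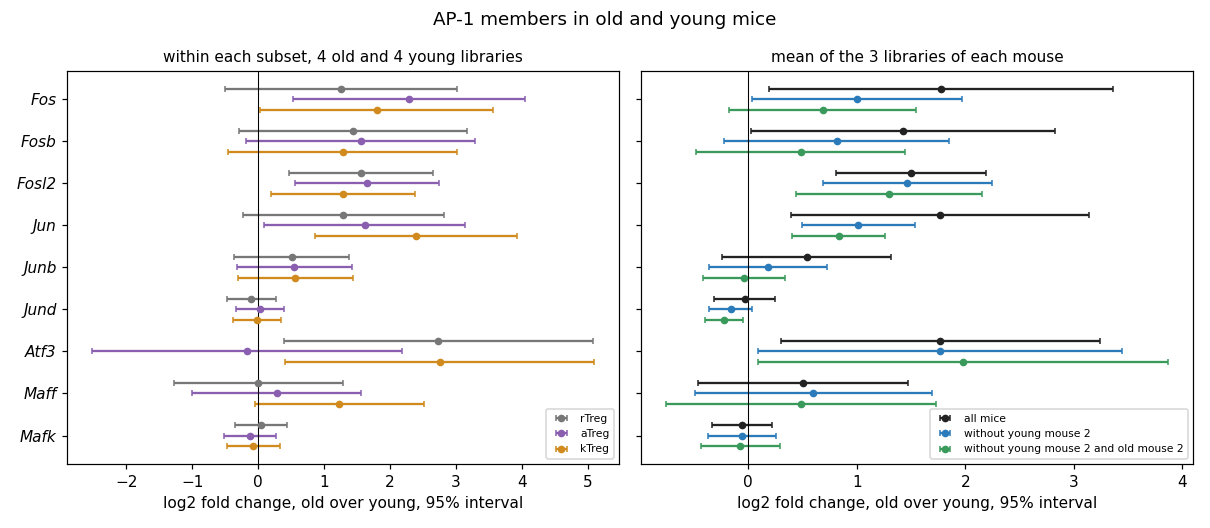
Log2 fold changes of old over young with 95% intervals, on the left within each subset and on the right for the mean of the 3 libraries of each mouse, with all mice and with mice left out. Leaving out young mouse 2 moves Jun from 1.77 to 1.01 and narrows its interval, whereas Fosl2 lies at 1.47 without it.

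The largest differences in Fos, Jun and Junb were between mice of 1 age. A moderated F test in limma over the mouse terms, also chosen after the values were seen, gave adjusted p of 8.1e-07 for Fos, 2.2e-06 for Jun and 3.2e-05 for Junb, whereas 0.884% of all genes were called. By p they ranked 5, 6 and 11 of 16630 genes. Mouse-to-mouse differences took 96.7% of the variation within groups for Fos, 96.1% for Jun and 94.4% for Junb, compared with a median of 36.7% over all genes. With no mouse effect, a share of 33.3% is expected. For Fosb the share was 74.2% (adjusted p = 0.14), for Jund 65.5% (0.35), for Mafk 45.4%, for Atf3 37.8% and for Fosl2 25.6%, with Maff between Atf3 and Mafk.

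Young mouse 2 was lowest in all 3 subsets: on average over its libraries Fos was 5.03-fold, Jun 4.76-fold and Junb 2.09-fold below the group means. Young mouse 1 was above the group mean for Fos in all 3 subsets, by a mean of 1.40 on the log2 scale. Among old mice, mouse 2 was high, with Fos 1.93-fold and Junb 1.58-fold above the group means, and mouse 1 was low, with Fos 1.76-fold below. Without young mouse 2 the adjusted p were 0.0079 for Fos, 0.0099 for Junb and 0.18 for Jun (0.198% of genes called), and without old mouse 2 all 3 remained called (0.830% of genes). Without both mice Fos was called (adjusted p = 0.0024), Junb (0.40) and Jun (0.66) were not, and 0.138% of genes were. The 3 libraries of a mouse share 1 spleen, so a difference between the mice and a difference in the handling of their spleens cannot be told apart. High B cell and macrophage markers and low Fos, Jun and Junb occurred together in this 1 mouse, young mouse 2, and the part of the markers was not tested. The old rTreg libraries, which also carried macrophage and monocyte markers, had Fos at 3112 to 7378. They came from old mice and carried basophil markers as well, so these values do not bear on young mouse 2.

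**Figure D4:**
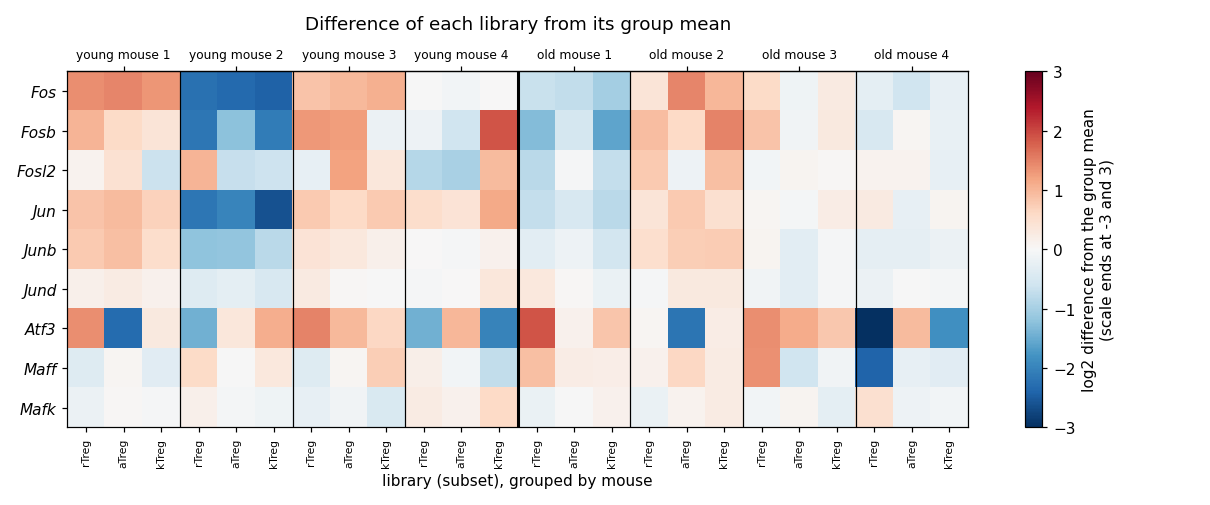
Log2 difference of each library from the mean of its group for the 9 members, with the 3 libraries of a mouse side by side and the young mice on the left. Fos, Jun and Junb have 1 colour across the 3 subsets of young mouse 2 (blue) and of young mouse 1 (red), and Atf3 changes colour within mice.

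Across the 24 libraries, the deviations from group means of Fos and Junb correlated at r = 0.95, of Fos and Jun at 0.92, of Jun and Junb at 0.87 and of Fos and Fosb at 0.81. Without young mouse 2 and old mouse 2 these were 0.93, 0.80, 0.79 and 0.66 over 18 libraries. Libraries of a mouse share their spleen, so the points are not independent. Fosl2 followed Fos at 0.25, and Atf3 and Maff followed each other at 0.42 and ran against Mafk at -0.64 and -0.46. The genes outside the family whose log2 values were most like those of Fos were Ppp1r15a (r = 0.93), Rgs2 (0.87), Mir1938 (0.85), H3f3b (0.84) and Klf6 (0.84). Without young mouse 2 and old mouse 2 these were 0.68, 0.91, 0.48, 0.59 and 0.57 over 18 libraries. The same 5 genes led for Junb, with Ppp1r15a at 0.93, and without both mice Ppp1r15a was at 0.63 and Mir1938 at 0.39. Ppp1r15a encodes the phosphatase subunit GADD34, Rgs2 a regulator of G protein signalling and Klf6 a zinc finger factor, and the Mir1938 entry was counted as a gene and not as a mature miRNA. On deviations from group means Dusp1, the phosphatase of MAP kinases, was second for both, at 0.90 for Fos and 0.92 for Junb.

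Of other genes of the pathway, the test of the mice called 5 of 28 other immediate-early genes (Dusp1, Zfp36, Ppp1r15a, Klf6 and Rgs1), 5 of 14 heat shock genes, which mark stress of proteins, 0 of 20 MAP kinases and regulators of serum response factor, and 1 of 6 dimer partners, Batf3, where 0.884% of all genes were called. Without young mouse 2 and old mouse 2 it called 2 of the immediate-early genes (Dusp1 and Ppp1r15a), 3 of the heat shock genes and 0 dimer partners (0.138% of all genes). Without young mouse 2 alone, Zfp36 (adjusted p = 0.63), Klf6 (0.24), Rgs1 (0.14) and Batf3 (0.74) were not called. Egr1, another immediate-early gene, was 0.21 above its group means in young mouse 2 on the log2 scale, where Fos was 2.33 below. Hspa1a was 1.66 below in young mouse 2. The order of the mice differed for the chaperone Hsph1, which was 0.85 below its group means in young mouse 1, the mouse with the highest Fos deviation.

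Dimer partners decide which sites AP-1 members bind. Of 9 listed dimer partners 6 were tested, and 2 rose in kTreg relative to aTreg and relative to rTreg cells, none fell, and none was called between aTreg and rTreg. The 2 are 33.3% of the 6, where 7.39% of all genes were called against aTreg and 15.5% against rTreg. In young mice alone 2 rose in kTreg over rTreg (8.24% of all genes) and 1 over aTreg (3.46%). In aTreg over rTreg 1 rose there (2.71%). In old mice alone 0 were called in kTreg against rTreg (5.77% of all genes rose) or against aTreg (1.33%). The age difference of kTreg against rTreg was called below 0 for 1 partner (2.05% of all genes), as was that of aTreg against rTreg (1.05%). Batf, which pairs with JUN proteins, rose by a log2 fold change of 1.00 ± 0.15 (adjusted p = 3.1e-05) in kTreg over rTreg and by 0.63 ± 0.15 (0.0074) over aTreg, with group means from 2510 in young rTreg to 6689 in old kTreg cells. Jdp2, a repressor that pairs with JUN proteins, rose by 1.37 ± 0.25 over rTreg (adjusted p = 0.00027) and by 0.94 ± 0.25 over aTreg (0.014). Both also rose in old over young rTreg cells, Jdp2 by 2.02 ± 0.35 (0.00081) and Batf by 0.83 ± 0.21 (0.019), in the same libraries that carried the myeloid and basophil markers.

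Of 9 tested MAF and CNC-BACH factors, 2 rose and 2 fell in kTreg relative to rTreg cells, or 44.4% beside 15.5% of all genes. Maf, the large MAF protein c-MAF, rose by 2.22 ± 0.17 (adjusted p = 4.6e-09) and Mafg by 0.60 ± 0.14 (0.0025). Bach2, a repressor that with small MAF proteins occupies AP-1 sites in T cells, fell by 2.76 on the log2 scale (SE 0.24, adjusted p = 1.7e-08), from 1591 ± 168 (SD, n = 4) in young rTreg to 246 ± 125 in young kTreg cells. Bach2 also fell in old relative to young aTreg cells, by 1.81 (SE 0.33, adjusted p = 0.0026). Between aTreg and rTreg cells 2 of these factors rose and 2 fell, or 44.4% beside 8.01%, with Maf 1.61 ± 0.17 higher (2.5e-06), and between kTreg and aTreg cells 2 rose and 1 fell, or 33.3% beside 7.39%. In young mice alone 2 rose and 1 fell between kTreg and aTreg cells (3.46% and 3.49% of all genes). In old mice alone 0 were called (1.33% and 0.866%).

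**Figure D5:**
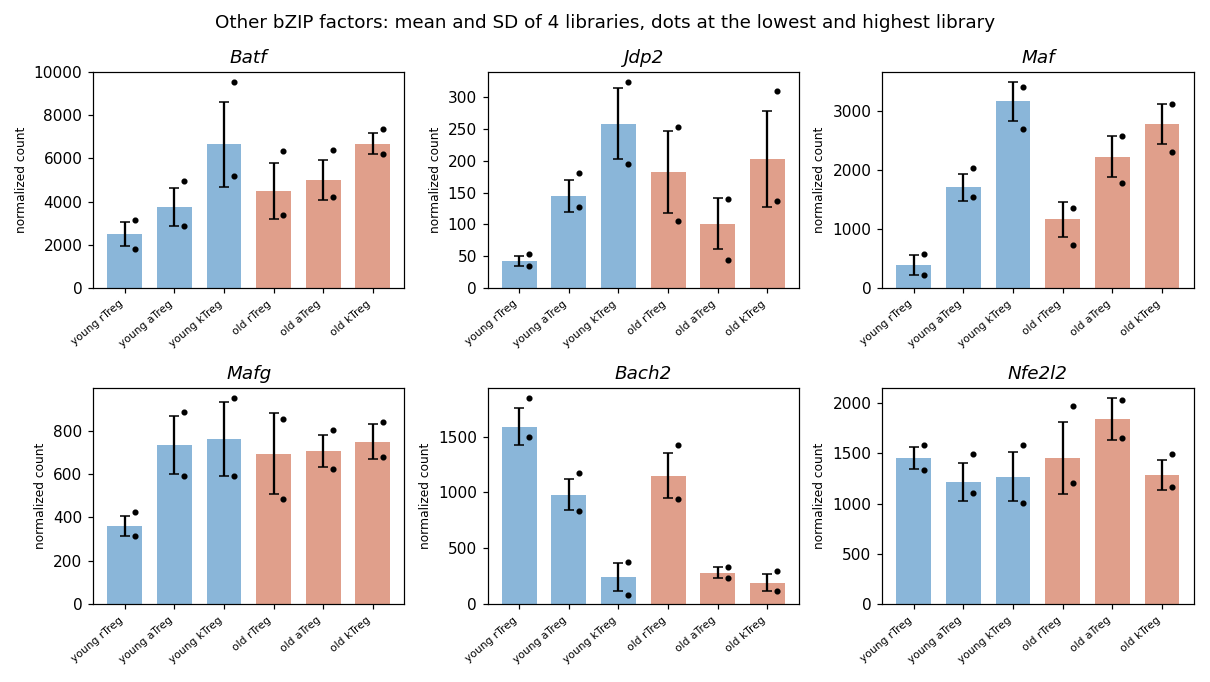
Normalized counts of 6 other leucine zipper factors in the 6 groups, as the mean and SD of 4 libraries with dots at the lowest and highest library. Bach2 drops from 1591 in young rTreg to 246 in young kTreg cells, and Maf and Batf are highest in kTreg cells.

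Upstream of the members, 1 of 20 MAP kinases and regulators of serum response factor rose in kTreg relative to aTreg cells, and 2 rose and 1 fell relative to rTreg cells. These are 5% and 15% of the list, near the 7.39% and 15.5% of all genes. Map2k3, a kinase that activates p38, rose by 0.63 ± 0.06 over aTreg (adjusted p = 3.2e-07) and by 0.81 ± 0.06 over rTreg (2.1e-09). It was higher in 8 of 8 mice in each comparison, as were 5.58% and 6.53% of genes. Elk4, a cofactor of serum response factor, fell by 0.59 (SE 0.15, adjusted p = 0.0065) in kTreg relative to rTreg cells. Mapk11, p38 beta, fell by 0.94 (SE 0.11, adjusted p = 5.0e-06) in aTreg relative to rTreg cells.

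Of 28 other immediate-early genes 6 rose and 2 fell in kTreg relative to aTreg cells, 8 rose and 2 fell relative to rTreg cells, and 1 rose and 3 fell in aTreg relative to rTreg cells (2 and 3 with the mouse as a block). The called shares were 28.6%, 35.7% and 14.3% of the list, beside 7.39%, 15.5% and 8.01% of all genes. Dusp5, a phosphatase of ERK, rose by 1.31 ± 0.12 over aTreg (adjusted p = 2.7e-07), Nfkbiz by 1.03 ± 0.17 (0.00025), Gadd45b by 0.85 ± 0.17 (0.0019) and Zfp36, which degrades cytokine mRNA, by 1.02 ± 0.23 (0.0043). Klf2, a quiescence factor, fell by 1.40 (SE 0.19, adjusted p = 3.2e-05) in aTreg relative to rTreg cells. The median of the list between kTreg and aTreg was 0.29, beside -0.08 over all genes.

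Of 11 tested genes with known AP-1 sites, 4 rose and 1 fell in aTreg relative to rTreg cells, 3 fell in kTreg relative to aTreg cells, and 2 rose and 1 fell in kTreg relative to rTreg cells. The called shares were 45.5%, 27.3% and 27.3%, beside 8.01%, 7.39% and 15.5% of all genes. The falls in kTreg relative to aTreg cells were not seen at both ages. In young mice alone 3 of the 11 fell (3.49% of all genes), with a list median of -1.29. In old mice alone 0 were called (0.866% of all genes fell), with a list median of -0.12. The age difference of kTreg against aTreg held 0 called genes of this list (0.156% of all genes). Tnf rose by 0.81 ± 0.10 in aTreg over rTreg (adjusted p = 2.4e-05) and fell by 0.70 (SE 0.10, adjusted p = 0.00012) in kTreg relative to aTreg cells. Il2 rose by 2.89 ± 0.70 (0.0085) and fell by 2.86 (SE 0.70, adjusted p = 0.0090) in the same comparisons. Of 11 antioxidant response genes, which small MAF and NRF2 pairs bind, 3 rose and none fell in kTreg relative to rTreg cells, 27.3% beside 15.5% of all genes, among them Osgin1 by 1.36 ± 0.22 (0.00010). Of 14 heat shock genes 4 rose and 1 fell there, 35.7% beside the same 15.5%, with Hspb1 2.05 ± 0.40 higher (0.00058), and 1 fell in kTreg relative to aTreg cells (7.14% beside 7.39%), where with the mouse as a block 1 more rose. In young mice alone 3 heat shock genes rose and 1 fell in kTreg relative to rTreg cells (8.24% and 7.56% of all genes). In old mice alone 0 were called (5.77% and 3.09%).

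Of the 9 members, 7 overlap an annotated gene on the other strand, and a strand setting for the counting is not given in the sources used here. Junb overlaps Prdx2 (median 4030.1 normalized counts) and Jun overlaps Junos (7.73). Reads in the shared part cannot be told apart without strand.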

How the data were processed

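Spleen Treg subsets were sorted and their RNA amplified with SMART-Seq v4 and sequenced with paired ends. Per the submitters' processing notes, the authors used HISAT2 2.2.1 (GRCm39), SAMtools 1.13, HTSeq 1.99.2 and DESeq2 1.44.0. The deposited table holds signal values that the authors made by dividing gene read counts by size factors, called normalized counts here. Whole reads were recovered for 100% of values (tolerance 0.001). Values were compared as log2(value + 1) for genes at 10 or more in at least 4 libraries with limma 3.58.1 (R 4.3.3). Gene calls needed an adjusted p under 0.05 and a fold above 1.5, interactions the adjusted p alone. edgeR 4.0.16 and DESeq2 1.42.0 on recovered reads, other scalings, filters, pseudocounts, blocks and leave-outs were alternatives. The tests were run on simulated reads in which the libraries of a mouse were drawn independently. The simulation therefore does not show how the tests behave where libraries of a mouse are alike. The series' design text takes all 3 subsets from 8 mice (4 of each age), and libraries were paired by the number in the labels. Over all genes, the deviations of 2 libraries with 1 number correlated at a median of 0.15, 0.09 and 0.12 for the 3 pairs of subsets, with a lowest value of -0.06. The members and lists were chosen with earlier results of these data known. Genes named from each list were, by rule, up to 4 with the smallest p in a subset comparison and up to 2 in an age comparison. Intervals are 95%. P-values of the fits without a block measure the spread between the mice of a group. Those with the mouse as a fixed block, and those of the test of the mice, measure the spread of libraries left after the mouse and group terms.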

Additional observations from a re-analysis of the deposited data

Results flagged for a closer look

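In groups of 4 libraries, the gap of the extreme library to its neighbour was large relative to the range of the group on the log2 scale for 4 of 54 combinations of member and group, and chance flags about 1 in 20. Jun in young rTreg mouse 2 was at 708 normalized counts and in young kTreg mouse 2 at 329.9, each far below the other 3 mice. Junb in the old aTreg library of mouse 2 was at 39287, far above the others, and this library also had the lowest Foxp3, whose part was not tested. Mafk in the old rTreg library of mouse 4 was at 1722. The kTreg to rTreg difference of Jun changed with age by 1.10 on the log2 scale in the fit with mouse as a block (adjusted p = 0.026 in limma), lower in kTreg in 4 of 4 young mice and higher in 4 of 4 old mice.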

How the results depend on the processing

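Fosl2 between kTreg and rTreg was called under all 48 alternatives, with log2 fold changes of 1.11 to 1.69 and adjusted p of 0.0010 to 0.031. Jund between kTreg and aTreg was called (1 member) once the fold threshold was dropped. Between aTreg and rTreg 1 member, Fosl2, was called with unadjusted p, without young mouse 2, without young mouse 2 and old mouse 2, and without the libraries that stood apart. Between old and young rTreg 2 members (Fosl2 and Atf3) were called by DESeq2 and with unadjusted p, and 1 (Fosl2) without the libraries that stood apart. Between old and young aTreg 3 were called with unadjusted p, and between old and young kTreg 4 (Fos, Fosl2, Jun and Atf3). Jun, 1 member, was called between old and young kTreg without young mouse 2, also with old mouse 2 left out, and without the libraries that stood apart. Leaving out 1 library or mouse gave 0 to 1 called members in old against young rTreg, aTreg and kTreg and in aTreg against rTreg. Under the replicate block with mouse as a fixed or random term, the counts of members called between subsets were 0, 1 and 0 as in the fit without it, and Fosl2 had an adjusted p of 0.014; the fixed block cannot be fitted to old against young within a subset. No called member changed sign, and 135 of 2956 values of single members under the alternatives differed in sign from an uncalled value. The replicate block moved Jun's age difference to called. The cause of these changes was not tested. Atf3, at 0 in 3 young libraries, had the widest intervals of the 9 members in each age comparison (SE 1.129).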
